A study of Mus musculus with 6 samples.

Results

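The 9 complement genes *C1qa*, *C1qb*, *C1qc*, *C3*, *Cfb*, *Cfp*, *C3ar1*, *C5ar1* and *Cd55* were read by gene symbol from a table of 24786 symbols, and all 9 had a row in it. The table holds 6 messenger RNA libraries of Raw264.7 cells, a mouse macrophage line established from a tumor induced by Abelson murine leukemia virus. The strain is labelled C57BL/6. The paper gives that strain for its mice and names none for the line, so the label could not be checked and is uncertain. In 3 libraries the cells carried a negative control shRNA (sh-NC, genotype control), and in 3 they carried an shRNA against *Etv5* (sh-*Etv5*, genotype Etv5 knockdown). Both groups had been infected with lentivirus in the same way. The labels give 24 or 48 hours after infection as the time of measurement, while the paper's text describes stable transfection before sequencing, which leaves the time uncertain. Which shRNA against *Etv5* was sequenced is not named. All libraries come from this single line, and nothing says whether the 3 libraries of a group were separate cultures, so the p-values below measure the spread between libraries.

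Complement is a set of plasma and membrane proteins that tag microbes and dying cells and call in phagocytes. C1q, built from A, B and C chains, starts the classical pathway on immune complexes and apoptotic cells, and it is made mainly by tissue macrophages. C3 is the central protein on which all pathways meet. Factor B, encoded by *Cfb*, forms the alternative pathway convertase with activated C3, and properdin, encoded by *Cfp*, stabilizes that convertase. Cleavage of C3 and C5 releases the anaphylatoxins, which act on myeloid cells through the receptors encoded by *C3ar1* and *C5ar1*. CD55, or decay-accelerating factor, takes convertases apart on the cell's own surface.

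Knockdown of *Etv5* was accompanied by higher mRNA of both anaphylatoxin receptors and of properdin. The level of *C3ar1* was 8.01 times, that of *C5ar1* 5.73 times and that of *Cfp* 3.19 times as high in sh-*Etv5* cells as in sh-NC cells. *C3* and *Cfb* lay close to 1 RPKM in both groups, where no difference was detected. The 3 C1q chain genes and *Cd55* were listed at or near 0 in every library of both groups. RPKM scales reads to the length of the gene and to the mapped reads of the library, so it can be compared between genes of different length. The plot of the 9 genes by library shows these levels.

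**Figure D1:**
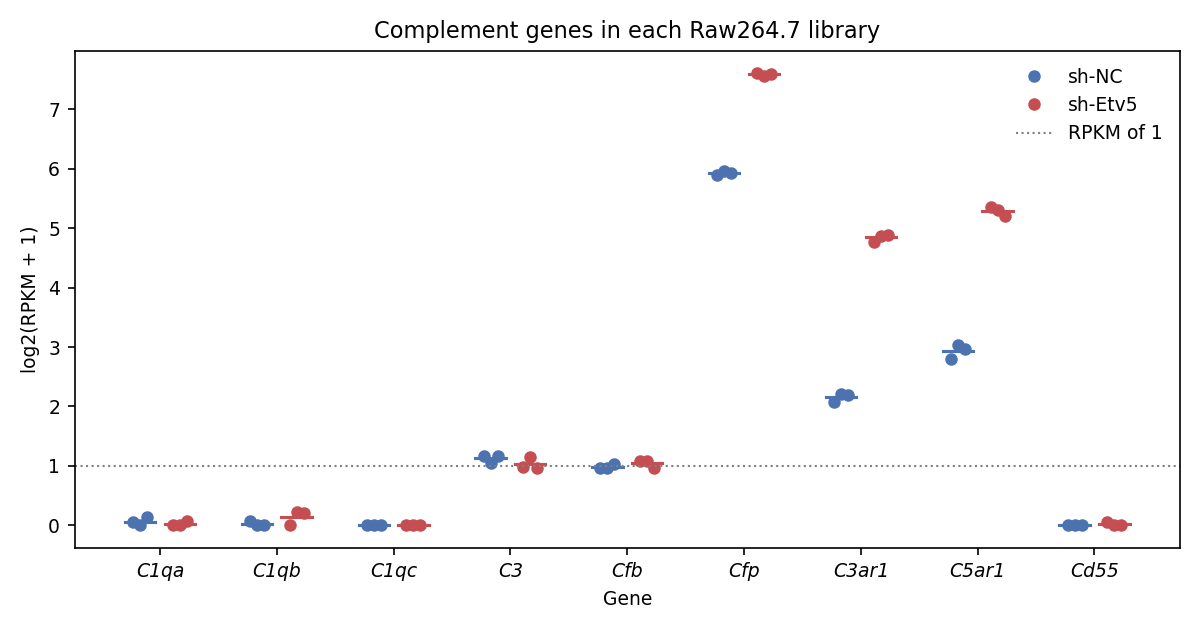
Level of each complement gene in each library, as log2(RPKM + 1), with blue points for the 3 sh-NC libraries, red points for the 3 sh-*Etv5* libraries, short bars for group means and a dotted line at an RPKM of 1. The red points of *Cfp*, *C3ar1* and *C5ar1* all lie above the blue points, whereas those of *C3* and *Cfb* overlap them near the dotted line.

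The RPKM values of a library summed to between 320462 and 340257. The number of reads behind them is unknown, so no interval for counting error is given. Groups were compared with limma on log2(RPKM + 1) over 10738 genes, namely those that reached 1 RPKM in 3 or more libraries. A gene was called when its p, after Benjamini-Hochberg adjustment, was under 0.05. Fold changes on this scale understate the change of genes with a low RPKM. The target of the shRNA, *Etv5*, measured 9.18, 9.89 and 9.39 RPKM in controls and 5.19, 4.91 and 5.28 RPKM after knockdown, a log2 difference of -0.78 (SE 0.0565, limma adjusted p = 2.74e-07). Of the 50-base stretches in *Etv5* transcripts, 24.5% also occur in *Gm4798*. Of 9 macrophage markers 8 were tested, of which 4 had higher and 4 had lower levels after knockdown. The summed RPKM of all 9 was 4455 to 4582 in sh-NC and 3549 to 3670 in sh-*Etv5* libraries. The largest part of this sum was *Lyz2*, with means of 2834 RPKM in sh-NC and 2041 RPKM in sh-*Etv5* libraries, so it does not describe the markers in general. The macrophage receptor gene *Mertk* reached at most 0.0653 RPKM. None of the 25 markers of hepatocytes, T cells, B cells, fibroblasts, epithelial cells, neutrophils and endothelial cells was tested, and none reached more than 0.759 RPKM. Of these 25, 7 were listed at 0 in all libraries (*Apoa1*, *Serpina1a*, *Pax5*, *Col1a2*, *Krt8*, *Ly6g* and *Elane*). The highest single value was 0.0443 RPKM for hepatocyte, 0.0999 for T cell, 0.365 for B cell, 0.128 for fibroblast, 0.0234 for epithelial and 0.0210 for neutrophil markers. The summed RPKM of the 3 endothelial markers was 0.171 to 0.363 in sh-NC and 1.09 to 1.24 in sh-*Etv5* libraries. That of the 4 fibroblast markers was 0.0112 to 0.0222 and 0.112 to 0.164. The part of these shifts in the results below was not tested.

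Of the 9 complement genes, 5 passed the filter on low values, and after knockdown 3 of these were called higher and 0 lower. The background is high in this comparison, since 74.3% of all tested genes were called, 33.3% as higher and 41% as lower. At an unadjusted p under 0.05 also, 0 of the 5 were lower. The median log2 fold change of the 5 genes was 1.66, beside -0.05 over all tested genes. A rise of more than 1 on the log2 scale with an adjusted p under 0.05 was seen for 3 of the 5 genes and for 6.23% of all tested genes. All 5 had libraries at or above 1 RPKM in both groups, so none passed the filter only through the group in which it was higher. Ordered by log2 fold change from the largest rise, *C3ar1* stood at 85, *C5ar1* at 109 and *Cfp* at 256 of the 10738 genes.

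**Figure D2:**
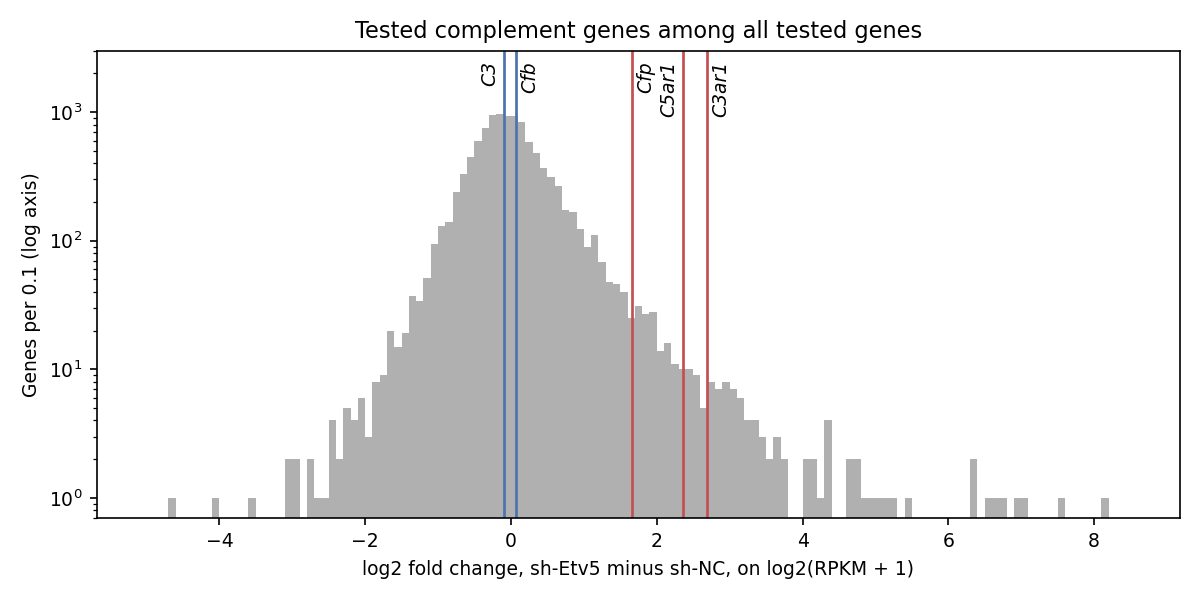
Histogram of the log2 fold changes of the 10738 tested genes in bins of 0.1, with the number of genes on a log axis, and a vertical line for each tested complement gene (red for called, blue for not called). *Cfp*, *C5ar1* and *C3ar1* lie in the right tail between 1.66 and 2.69, and *C3* and *Cfb* lie in the bulk of the genes near 0.

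*C3ar1* (GRCm38 chromosome 6, 122847138 to 122856161, minus strand) encodes the G protein-coupled receptor for C3a. Controls had 3.19, 3.61 and 3.59 RPKM of it, and cells with the shRNA against *Etv5* had 26.3, 28.3 and 28.6 RPKM. Every sh-*Etv5* library was thus far above every sh-NC library, and the spread within a group was small beside the gap. Mean levels were 3.46 ± 0.233 RPKM in controls and 27.7 ± 1.28 RPKM after knockdown (SD, n = 3). On the log2 scale the rise came to 2.69 (SE 0.0582, 95% confidence interval 2.56 to 2.82, limma adjusted p = 1.58e-11). By mean RPKM the gene moved from rank 8583 to rank 2326 among all symbols. In these bulk libraries, more RNA in every cell and more cells with the RNA cannot be told apart.

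*C5ar1* (GRCm38 chromosome 7, 16246743 to 16259540, minus strand) encodes the main receptor for C5a, a strong attractant of neutrophils and macrophages. Its RPKM was 5.99, 7.17 and 6.79 in sh-NC and 40.0, 38.4 and 36.0 in sh-*Etv5* libraries. The groups did not overlap here either, and the level stayed above that of *C3ar1* in each of the 6 libraries. Mean levels were 6.65 ± 0.603 RPKM for controls and 38.1 ± 2.01 RPKM for knockdown (SD, n = 3), so that the log2 rise was 2.36 (SE 0.0635, 95% confidence interval 2.22 to 2.50, limma adjusted p = 1.02e-10). Groups without overlap were common, at 76.4% of all tested genes. The other C5a receptor gene, *C5ar2*, was below the filter, with 0.181 ± 0.0579 RPKM in controls against 0.202 ± 0.0544 RPKM after knockdown (SD, n = 3), and its groups overlapped.

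The share of the receptors relative to each other was also compared. Within a library, the RPKM of *C3ar1* divided by that of *C5ar1* was 0.533, 0.503 and 0.529 in sh-NC and 0.657, 0.738 and 0.796 in sh-*Etv5* cells. All 3 ratios of sh-*Etv5* cells were above all 3 of sh-NC cells. The level of *C3ar1* was thus a larger fraction of that of *C5ar1* after the knockdown. On the log2(RPKM + 1) scale the ratio differed by 0.33 between the groups, and by 0.48 without the pseudocount. An exact permutation test, two-sided, gave p = 0.1, the smallest that 3 against 3 libraries allow (0.175 after Benjamini-Hochberg adjustment over 7 gene pairs). A scaling factor of a whole library cancels in the plain ratio.

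**Figure D3:**
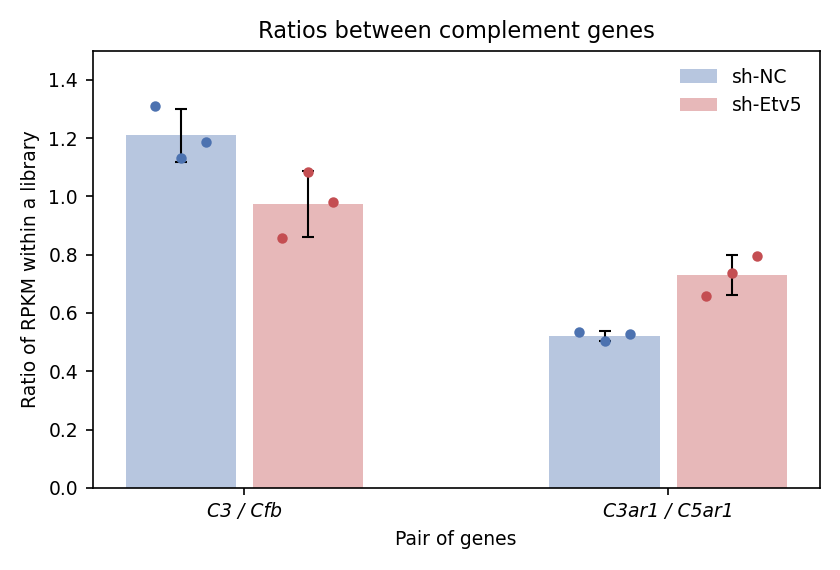
Ratio of RPKM within each library for *C3* over *Cfb* and for *C3ar1* over *C5ar1*, with blue for sh-NC and red for sh-*Etv5*; bars are means, error bars are the SD over 3 libraries and points are single libraries. The *C3ar1* to *C5ar1* ratio rises from a mean of 0.522 to 0.730, while the *C3* to *Cfb* ratio goes from 1.21 to 0.975, and neither pair of groups overlaps.

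*Cfp* (GRCm38 chromosome X, 20925454 to 20931555, minus strand) was the most abundant of the 9 genes in both groups. Properdin, its product, is unusual among complement components in being made largely by leukocytes and not by the liver. Controls gave 58.7, 61.7 and 59.9 RPKM, and knockdown gave 193.9, 187.8 and 192.7 RPKM. The libraries of a group lay close together and the groups were well apart. Its mean changed from 60.1 ± 1.51 to 191.5 ± 3.23 RPKM (SD, n = 3), a rise on the log2 scale of 1.66 (SE 0.0335, 95% confidence interval 1.58 to 1.73, limma adjusted p = 9.25e-12). By mean RPKM it stood at rank 1035 of all symbols in sh-NC and at rank 232 in sh-*Etv5* cells.

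No such rise was seen in the mRNA of the proteins that form the convertase itself. *C3* (GRCm38 chromosome 17, 57203970 to 57228136, minus strand) had 1.24, 1.08 and 1.24 RPKM in sh-NC and 0.965, 1.22 and 0.942 RPKM in sh-*Etv5* libraries. Replicate 2 of sh-*Etv5* lay inside the range of the controls and the other libraries of that group below it. For *C3* limma gave a log2 fold change of -0.10 with a 95% confidence interval from -0.29 to 0.10 and an adjusted p of 0.326. This call depended on the scaling, since quantile normalization gave -0.32 with a limma adjusted p of 0.0109, over a range of 0.0109 to 0.575 across the alternatives.

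*Cfb* (GRCm38 chromosome 17, 34856374 to 34862518, minus strand) had 0.942, 0.951 and 1.05 RPKM in sh-NC and 1.12, 1.13 and 0.961 RPKM in sh-*Etv5* libraries. Its groups overlapped through replicate 3 of each group. Here limma gave a log2 fold change of 0.06 with a 95% confidence interval from -0.12 to 0.24 and an adjusted p of 0.496, and the value turned to -0.15 with quantile normalization. Of the 50-base stretches in *Cfb* transcripts, 73.0% also occur in *Gm20547*, an annotated gene on the same strand that overlaps it. At a level near the filter, a small change of either gene would not have been detectable.

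Because *Cfp* rose and the others were not called, the balance of these transcripts shifted. The RPKM of *Cfp* was 51.0 ± 5.47 times that of *C3* in sh-NC and 186.3 ± 28.6 times in sh-*Etv5* cells (SD, n = 3). Set against *Cfb*, it was 61.4 ± 3.94 times and 179.9 ± 18.2 times as high (SD, n = 3). For each pair the log2 ratios did not overlap between the groups (exact permutation test, two-sided, p = 0.1 each, the smallest possible). *C3* over *Cfb* also separated, at 1.31, 1.13 and 1.19 in sh-NC and 0.859, 1.09 and 0.980 in sh-*Etv5* libraries, although neither gene was called by itself (exact permutation test, two-sided, p = 0.1).

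The promoters of the called genes and of *C3* are given here because *C3ar1*, *C5ar1* and *Cfp* rose together while *C3* did not. The sequences are from a set of RefSeq promoters on GRCm38.p6. In the set used here an entry was matched for 7 of the 9 genes, but not for *C1qa* and *Cfb*. The sequences cover the 250 bases before the transcript start that RefSeq gives, read 5′ to 3′ on the strand of the gene. Capitals mark matches on either strand to GGAAGT (ETS type) or CCGGAAGT (a longer ETS type that contains GGAAGT). They also mark GGGNNNTCC (kappa B type), GAAANNGAA (interferon response type) and TTGCNNAA (C/EBP type). GGAAGT contains GGAA, the shorter core bound by the family of ETV5, which was not searched for by itself. The regions are chr6:122856158-122856407 for *C3ar1*, chr7:16259339-16259588 for *C5ar1*, chrX:20931556-20931805 for *Cfp* and chr17:57228137-57228386 for *C3*, all on the minus strand.
C3ar1: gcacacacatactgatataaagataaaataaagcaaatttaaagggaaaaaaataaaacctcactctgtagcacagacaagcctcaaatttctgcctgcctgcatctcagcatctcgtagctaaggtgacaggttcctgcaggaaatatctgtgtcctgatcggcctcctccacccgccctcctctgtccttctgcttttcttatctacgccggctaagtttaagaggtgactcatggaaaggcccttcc
C5ar1: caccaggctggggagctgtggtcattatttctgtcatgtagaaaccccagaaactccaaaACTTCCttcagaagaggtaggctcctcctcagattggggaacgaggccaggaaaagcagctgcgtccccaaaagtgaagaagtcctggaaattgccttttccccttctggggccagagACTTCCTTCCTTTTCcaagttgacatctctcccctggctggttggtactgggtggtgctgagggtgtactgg
Cfp: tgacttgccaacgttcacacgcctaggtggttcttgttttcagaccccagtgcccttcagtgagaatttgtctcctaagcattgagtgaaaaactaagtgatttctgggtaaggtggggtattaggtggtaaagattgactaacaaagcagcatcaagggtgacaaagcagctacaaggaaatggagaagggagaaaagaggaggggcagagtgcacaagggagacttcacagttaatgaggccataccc
C3: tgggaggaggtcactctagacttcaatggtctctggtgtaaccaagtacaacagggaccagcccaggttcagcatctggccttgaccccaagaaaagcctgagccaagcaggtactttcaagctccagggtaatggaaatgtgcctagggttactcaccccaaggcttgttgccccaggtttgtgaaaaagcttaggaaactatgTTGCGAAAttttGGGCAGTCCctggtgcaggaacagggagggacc

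GENCODE M21, from which the gene positions above were taken, places some starts farther upstream than RefSeq does. Of the *C5ar1* window, 202 bases lie inside its GENCODE gene, 28 of them in an exon (-202 to -175 counted from the RefSeq start) and 174 in an intron. Of the *C3ar1* window 4 bases lie in an exon of its GENCODE gene, while the *Cfp* and *C3* windows lie outside theirs. The searched letters were not found in the windows of *C3ar1* and *Cfp*. Both printed windows hold the shorter GGAA, as do those of *C5ar1* and of *C3*, which did not rise. The window of *C5ar1* holds GGAAGT at 2 places on the opposite strand, at -190 to -185, within that exon, and at -72 to -67, within the intron, and directly after the latter a GAAANNGAA match, also on the opposite strand, at -66 to -58, likewise in the intron. The window of *C3* holds TTGCNNAA at -45 to -38 and GGGNNNTCC at -33 to -25, both outside the gene and on the strand of the gene. Over the windows of 300 bases that also take in 50 bases after the start, GGAAGT occurred in 3 of the 7 promoters of these genes (*C1qb*, *C1qc* and *C5ar1*) and in 23.8% of all 32851 promoters. GGGNNNTCC occurred in 3 of 7 (*C1qc*, *C3* and *Cd55*) against 17.8% of all promoters. The match of *C1qc*, at -40 to -32, lies within an exon of its GENCODE gene (-151 to -1). GAAANNGAA occurred in 1 of 7 (8.56% of all), TTGCNNAA in 1 of 7 (10.8% of all) and CCGGAAGT in 0 of 7 (3.89% of all). A match describes the sequence only, and a window without one says nothing about binding of a factor.

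The genes of the C1q chains lie side by side on the minus strand of GRCm38 chromosome 4, *C1qb* from 136880129 to 136886187, *C1qc* from 136889804 to 136893065 and *C1qa* from 136895917 to 136898803. C1q is often used as a mark of resident tissue macrophages, yet these Raw264.7 libraries held almost none of its mRNA. *C1qa* was listed at 0.0361, 0 and 0.0981 RPKM in sh-NC and at 0, 0 and 0.0497 RPKM in sh-*Etv5* libraries. *C1qb* was listed at 0.0454, 0 and 0 RPKM in sh-NC and at 0, 0.171 and 0.152 RPKM in sh-*Etv5* libraries. *C1qc* was listed at 0 in all 6 libraries. None of the 3 genes reached the filter, and the groups of each overlapped. Dropping the filter, limma gave a log2 fold change of -0.04 for *C1qa* (95% confidence interval -0.15 to 0.07, limma adjusted p = 0.672) and 0.12 for *C1qb* (95% confidence interval -0.06 to 0.31, limma adjusted p = 0.328). No fold is given, because both groups are at or near 0. The log2 ratios between the 3 chains overlapped between the groups for each pair (exact permutation tests, two-sided, p = 0.3, 0.7 and 0.4).

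*Cd55* (GRCm38 chromosome 1, 130439027 to 130462744, minus strand) was listed at 0 RPKM in 5 of 6 libraries and at 0.0418 RPKM in replicate 1 of sh-*Etv5*. No difference was detectable at such values (without the filter, limma adjusted p = 0.589). Some 9.12% of the 50-base stretches of its transcripts also occur in the neighboring paralog *Cd55b* or in an overlapping antisense gene, *Gm16083*. *Cd55b* was listed at 0 in all 6 libraries.

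The rest of the pathway was read from a list of further complement genes, 52 of which were analysed. Of these, 16 passed the filter, and 14 of the 52 were listed at 0 in every library. After knockdown 7 of the 16 tested genes were called higher and 7 lower, and 2 were not called, with a median log2 fold change of 0.01. In all 14 of the 16 were thus called, beside 74.3% of all tested genes. Of the 16, 5 passed the filter only through the group in which they were higher and so had to differ, among them *Clu*, *Cd59a* and *Cd93*, which passed through sh-*Etv5*, and *Itgax*, which passed through sh-NC.

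**Figure D4:**
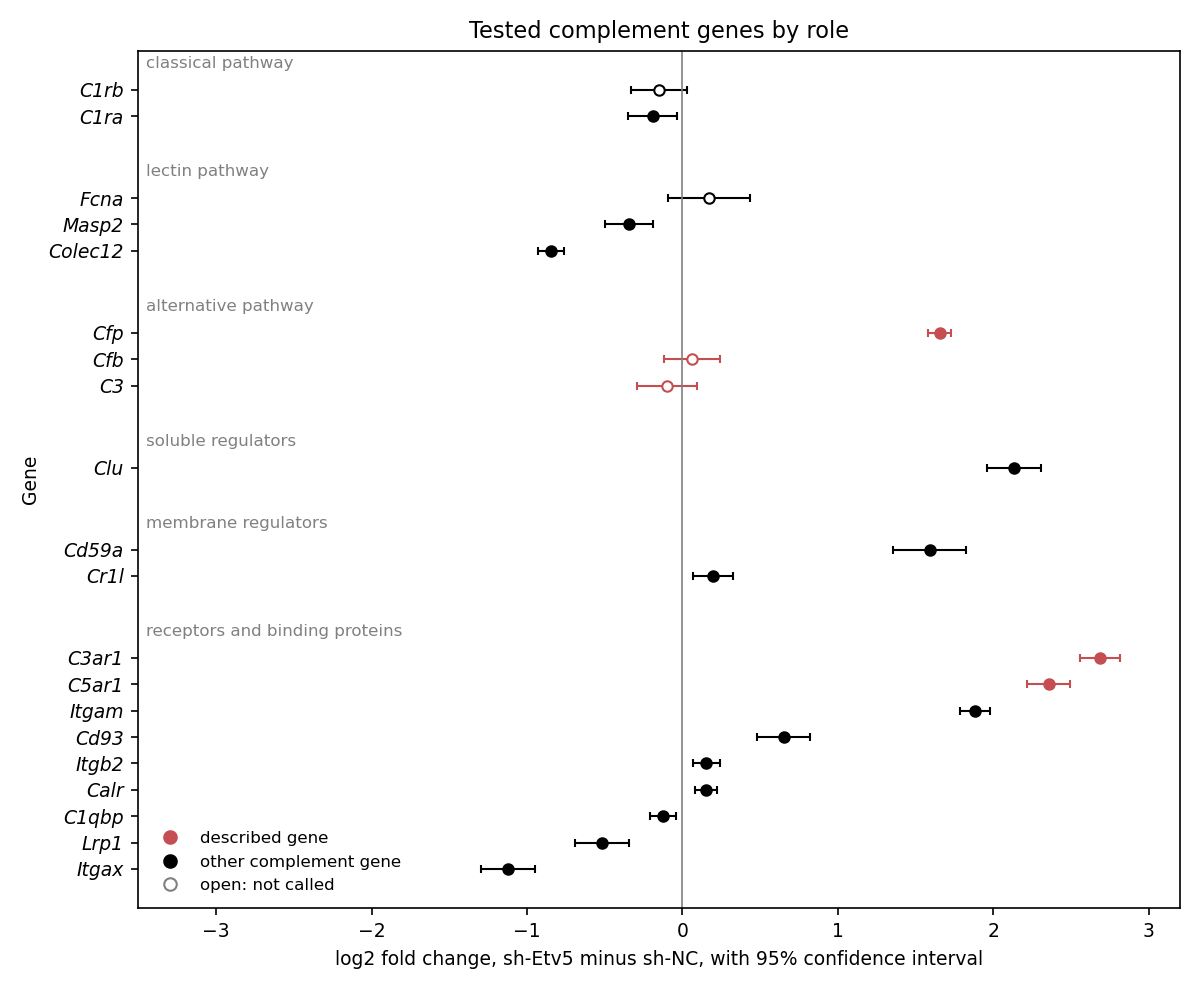
Log2 fold change of the tested complement genes named in the text with its 95% confidence interval, grouped by role; red marks the genes described in detail, black the further genes, and open circles genes that were not called. The largest rises among the genes drawn are those of *C3ar1*, *C5ar1* and *Clu*, and *Itgax* lies farthest to the left at -1.12.

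The classical and lectin pathways recognize targets and start the cascade. Of the 5 tested genes listed under them, 3 were called lower and 2 were not called, beside 41% of all tested genes called lower. With so few genes nothing is read from this count, and the call of *C1ra* was lost under 5 of 14 alternatives. *C1ra*, a protease of the C1 complex, went from 5.27 ± 0.520 to 4.49 ± 0.159 RPKM (SD, n = 3), which is -0.19 on the log2 scale (limma adjusted p = 0.0323). That call was lost when sh-NC replicate 2 was left out (-0.12, limma adjusted p = 0.153), and also without sh-*Etv5* replicate 1 (limma adjusted p = 0.0557) or replicate 2 (limma adjusted p = 0.0894). Its paralog *C1rb* was not called (-0.15, limma adjusted p = 0.113), and 50.8% of the 50-base stretches of *C1ra* also occur in *C1rb* or a related pseudogene, so the pair cannot be fully separated. The other classical pathway genes, *C1s1*, *C1s2*, *C2*, *C4a* and *C4b*, stayed at or below 0.238 RPKM. In the lectin pathway *Colec12*, a scavenger collectin of the cell membrane, fell from 66.2 ± 0.609 to 36.4 ± 1.45 RPKM (SD, n = 3; log2 fold change -0.84, limma adjusted p = 5.77e-09). *Masp2*, a protease of the lectin pathway, fell by 0.35 on the log2 scale (limma adjusted p = 0.000903). However, 52.5% of its 50-base stretches also occur in *Tardbp*, which overlaps it on the opposite strand. Whether strand was used in the quantification is not given in the sources used here. *Fcna*, a ficolin, was not called at 0.17 (limma adjusted p = 0.21), and it was called only without sh-NC replicate 3 (0.31, limma adjusted p = 0.021). None of the 7 terminal pathway genes was tested, and *Hc*, which encodes C5, reached at most 0.0139 RPKM.

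Of the 2 tested soluble regulators, 1 was called higher and 1 lower after knockdown. Of the 2 tested membrane regulators, 2 were called higher and 0 lower. Over all tested genes 33.3% were called higher and 41% lower, and with so few regulators nothing is read from these counts. The 3 regulators called higher are named here. Of them, *Clu* and *Cd59a* passed the filter only through sh-*Etv5* libraries, so their direction was set by the filter. *Clu*, which encodes clusterin, an inhibitor of the membrane attack complex, rose from 0.654 ± 0.127 to 6.24 ± 0.278 RPKM (SD, n = 3; log2 fold change 2.13, limma adjusted p = 1.14e-09). *Cd59a*, whose product blocks the last step of the membrane attack complex, also rose, from 0.576 ± 0.0961 to 3.77 ± 0.684 RPKM (SD, n = 3; log2 fold change 1.59, limma adjusted p = 1.44e-07). *Cr1l*, which encodes the rodent convertase inhibitor Crry, was by far the most abundant membrane regulator at 22.8 ± 1.32 and 26.3 ± 1.88 RPKM (SD, n = 3) and rose by 0.20 on the log2 scale (limma adjusted p = 0.00931). Its call was lost without the filter on low values (limma adjusted p = 0.103).

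Among receptors for C3 fragments and C1q, the integrin chains diverged. *Itgax* passed the filter only through sh-NC libraries and *Cd93* only through sh-*Etv5* libraries, so the direction of both was set by the filter. *Itgam*, the alpha chain of complement receptor 3, had 34.1, 34.3 and 32.9 RPKM in controls and 128.7, 133.5 and 119.3 RPKM after knockdown (log2 fold change 1.88, limma adjusted p = 3.20e-11). *Itgax*, the alpha chain of complement receptor 4, fell from 1.85 ± 0.0520 to 0.311 ± 0.0343 RPKM (SD, n = 3; log2 fold change -1.12, limma adjusted p = 2.16e-07). Their shared beta chain *Itgb2* rose by 0.16 (limma adjusted p = 0.00412), a call lost when libraries were rescaled to the same sum (limma adjusted p = 0.0547). In *Itgam*, 66.3% of the 50-base stretches also occur in *Gm49368*, an overlapping gene on the same strand. *Cd93*, a phagocyte receptor once proposed to bind C1q, rose from 0.579 ± 0.0135 to 1.48 ± 0.0560 RPKM (SD, n = 3; limma adjusted p = 1.78e-05). *Lrp1*, a scavenger receptor that acts with calreticulin in the uptake of C1q-coated cells, fell by 0.52 on the log2 scale (limma adjusted p = 0.000124), while *Calr* itself rose by 0.15 (limma adjusted p = 0.00143). *C1qbp*, a mitochondrial protein that can bind C1q, fell by 0.12 (limma adjusted p = 0.0134). This call was lost without the filter on low values (limma adjusted p = 0.0850) and without sh-NC replicate 2 (limma adjusted p = 0.0556). *Vsig4*, the complement receptor of liver macrophages, was listed at 0 in all 6 libraries.

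Which genes outside the pathway looked most like *C3ar1* was measured by the Euclidean distance of centred log2(RPKM + 1) over the 6 libraries. The 3 nearest were *Tnf* (distance 0.109, log2 fold change 2.69), *Avil* (0.147, 2.76) and *Smim3* (0.155, 2.76). Their levels differ widely, at 411.8, 6.51 and 18.1 RPKM in sh-*Etv5* cells. With only 2 groups, this likeness mainly reflects an equal difference between them.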

How the data were processed

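Polyadenylated RNA of 3 sh-NC and 3 sh-*Etv5* libraries was sequenced by the authors, who deposited a table of RPKM values per gene symbol. The submitters' processing notes name the build mm10. Aligner, gene annotation and use of strand are not given in the sources used here. The deposited RPKM values carry no read counts, so the depth is unknown and no count model was used. Groups came from the sample labels, and n counts libraries, whose spread may be technical.

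RPKM values were transformed to log2(RPKM + 1) and genes with at least 1 RPKM in at least 3 libraries were tested with limma 3.58.1 in R 4.3.3 (empirical Bayes with an intensity trend, no covariate, two-sided, Benjamini-Hochberg adjustment over all 10738 tested genes, threshold 0.05). Log2 ratios within a library were compared by an exact permutation test. The complement genes and all lists were chosen with earlier results of these data known. Named are the 9 complement genes, *Etv5*, tested genes of the wider complement list (1 tested gene of it enters the counts and is otherwise not reported here), cell type markers, and the 3 genes nearest to *C3ar1*; *C5ar2*, *Cd55b*, *Vsig4*, *Hc* and the untested classical pathway genes are named outside this rule, and were chosen after their values were seen. No called complement gene of the 9 fell, so no nearest genes to a fall are given.

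Gene positions are from GENCODE M21 on GRCm38, and the share of 50-base stretches found in other genes was counted in its transcripts. Promoters are from RefSeq on GRCm38.p6. Protein sequences were not used here. Alternatives were 2 other pseudocounts (0.1 and 0.01), no filter or a mean RPKM of at least 5, 3 other scalings (equal sums, quantiles, and sums outside the top 10 genes), no trend, the replicate number as a block, each library left out, and stricter thresholds.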

Additional observations from a re-analysis of the deposited data

How the results depend on the processing

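Over 32 results, 433 of 455 values under alternative settings were counted as unchanged, and 22 were not. A fold change had to keep its direction and its side of the threshold. A ratio had to keep its direction and move by less than the spread within groups. A count of genes only had to stay within a preset factor of the main count. The rises of *Cfp* (1.59 to 1.67), *C3ar1* (2.63 to 2.999) and *C5ar1* (2.29 to 2.52) were called under every alternative run, and leaving out 1 library gave 1.64 to 1.67, 2.64 to 2.72 and 2.29 to 2.40. With quantile normalization *C3* was called (-0.32, limma adjusted p = 0.0109), which made 1 complement gene lower, *Cfb* turned to -0.15 (limma adjusted p = 0.135) and *C1rb* was called (-0.26, limma adjusted p = 0.0159). The cause was not tested. Requiring also an absolute log2 fold change above 1 left 669 genes higher and 322 lower over all genes, and 3 higher and 2 lower in the wider list. A mean RPKM of at least 5 left 4 higher and 3 lower in the wider list, since fewer genes were tested. Without a pseudocount the log2 ratio difference moved to -0.32 for *C3* over *Cfb* and to 0.48 for *C3ar1* over *C5ar1*. With a pseudocount of 0.01 the log2 fold change of *Itgax* was -2.54, that of *Clu* 3.25, that of *Cd59a* 2.69 and that of *Cd93* 1.34, so the size at these low levels depends on the pseudocount. The replicate numbers did not pair the libraries (correlations of same-numbered deviations 0.0739, -0.0710 and -0.0352, and not every library correlated best with its own number). The fit with the replicate number as a block gave 3539 genes higher and 4361 lower, and of the named genes it ended the call of *C1ra* only (limma adjusted p = 0.0534), which was also lost without the filter (limma adjusted p = 0.120). The other lost or gained calls stand beside their genes. Read depth is unknown, so counting error near 0 RPKM cannot be given.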

Other observations

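Complement regulators *Cd46* and *Cd59b*, below the filter on low values, also had higher listed levels in sh-*Etv5* cells. *Cd46*, a cofactor for cleavage of C3b, went from 0.115 ± 0.0114 to 0.410 ± 0.0395 RPKM (SD, n = 3). *Cd59b* went from 0.0233 ± 0.0168 to 0.327 ± 0.0373 RPKM (SD, n = 3), and 3.87% of the 50-base stretches of *Cd59a* also occur in it. When genes of any level were tested, the limma adjusted p was 0.000584 for *Cd46* and 0.000552 for *Cd59b*. In that fit over 24786 genes, 3713 were called higher and 3937 lower, *C2* among the latter (log2 fold change -0.03, limma adjusted p = 0.0301). *Cd46*, *Cd59b* and *C2* were chosen after their values were seen.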
